A study of Mus musculus with 20 samples.

Results

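The matrix metalloproteinases (MMPs), the ADAMTS and ADAMTS-like genes and the tissue inhibitors of metalloproteinases (TIMPs) were examined in the middle colon of 20 mice. Members were the probe sets whose only gene symbol begins with Mmp and a digit, Adamts and a digit or l, or Timp and a digit. They came to 52 probe sets with values out of 22360 with a single symbol, and stood for 49 genes: 22 MMPs, 18 ADAMTS, 5 ADAMTS-like and 4 TIMPs. After a filter on dim values 44 genes were tested, 19, 16, 5 and 4 of these families in the same order, among 16739 genes in all. The 5 genes left out as dim were Mmp1a, Mmp1b, Mmp20, Adamts18 and Adamts20, all at 5.46 or less on the log2 scale on every array.

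MMPs are secreted or membrane-bound zinc proteases, made as inactive precursors, that cleave collagens, gelatin, proteoglycans and other proteins of the extracellular matrix as well as cytokines and cell surface proteins. ADAMTS proteases cut proteoglycans and procollagens and bind the matrix through thrombospondin repeats, while ADAMTS-like proteins keep those repeats and lack the protease. TIMPs bind the active site of MMPs, and Timp3 also inhibits several ADAM and ADAMTS proteases. In the inflamed gut these proteases are known from ulcer edges, infiltrating leukocytes and activated fibroblasts.

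Each group held 4 female C57BL/6JOlaHsd mice about 11 weeks old, with 1 array per mouse. Cyclosporine colitis mice drank 3% dextran sulphate sodium (DSS), which injures the colonic epithelium, for 5 days and were given 25 mg/kg cyclosporine A, a calcineurin inhibitor, by mouth on days 1 to 15 in methocel. Probiotic colitis mice received the strains L930BB and IM386 by gavage before and during the same DSS, and untreated colitis mice received DSS and saline. Probiotic healthy mice had the strains without DSS, and untreated healthy mice had saline alone; cyclosporine A was given to no healthy mice, so its action without DSS is not separated. The values are log2 expression from RMA, a method that normalises and summarises probes, as the authors deposited them. The tissue is whole colon wall, in which fewer cells of a type and less RNA per cell cannot be told apart. Per-mouse values below follow the animal numbers, which are 4, 7, 9 and 10 for cyclosporine colitis, 3, 5, 7 and 8 for probiotic colitis, 5, 6, 7 and 10 for untreated colitis, 4, 5, 6 and 7 for probiotic healthy and 2, 4, 6 and 7 for untreated healthy.

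The arrays were alike in scale, with medians of 6.22 to 6.29, and pairs of arrays correlated at 0.926 to 0.993. The mean correlation of an array with the other 3 of its group was lowest for untreated colitis mouse 6 (0.976), probiotic colitis mouse 8 (0.977) and untreated colitis mouse 7 (0.978), and within the healthy groups it was lowest for untreated healthy mouse 2 (0.984). On the first principal component, with 55.9% of the variance, the cyclosporine colitis mice lay at -12.9 to -2.07. Untreated colitis mouse 6 (2.14) and probiotic colitis mouse 8 (14.2) came next, below the other untreated colitis (18.8 to 32.4) and probiotic colitis mice (42.9 to 43.7), and the healthy arrays ran from -28.6 to -18.1. Untreated colitis mouse 6, probiotic colitis mouse 8 and untreated healthy mouse 2 are called the 3 arrays that stood apart from their groups, and results that rest on them are given with and without them. This set came from an earlier analysis of these data and not from the correlation alone, since untreated colitis mice 7 (0.978) and 5 (0.979) correlated less with their group than untreated healthy mouse 2 did and are not in it. Results that turn on untreated colitis mouse 7 are given without it too. Epithelial markers (8 of 8 tested) averaged 10.85 to 11.10 in untreated colitis and 11.05 to 11.16 in untreated healthy colon, and colonocyte markers 10.74 to 11.02 in untreated colitis and 11.73 to 11.94 in untreated healthy mice, so the labelled tissue was seen in both. A change is given as log2 change ± standard error of a limma fit over all 20 arrays, with p adjusted by Benjamini-Hochberg over all 16739 genes, and passes below 0.05.

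Of the 49 genes 13 lie on chromosome 9. In the RefSeq annotation of GRCm38.p6, 10 of them follow one another with no other protein-coding gene between, in the order Mmp13, Mmp12, Mmp1b, Mmp3, Mmp1a, Mmp10, Mmp8, Mmp27, Mmp20 and Mmp7. The promoters of 4 members of this cluster are shown. They were picked for large changes in colitis and for carrying both motifs given below, so that these traits go together in them is not a result. Each window runs from 250 bases before to 50 bases after the annotated start, 5′ to 3′, from RefSeq on GRCm38.p6. Capitals mark matches on either strand to the AP-1 motif TGAGTCA (reverse TGACTCA) and to the TATA motif TATAAA (reverse TTTATA), which do not overlap here.

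Mmp13, chr9:7272264-7272563, plus strand: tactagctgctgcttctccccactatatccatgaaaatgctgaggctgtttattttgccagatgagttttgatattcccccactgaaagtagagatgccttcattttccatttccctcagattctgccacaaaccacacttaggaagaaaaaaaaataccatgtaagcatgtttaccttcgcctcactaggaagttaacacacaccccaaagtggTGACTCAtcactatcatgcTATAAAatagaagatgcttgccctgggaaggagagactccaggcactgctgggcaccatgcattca
Mmp3, chr9:7445572-7445871, plus strand: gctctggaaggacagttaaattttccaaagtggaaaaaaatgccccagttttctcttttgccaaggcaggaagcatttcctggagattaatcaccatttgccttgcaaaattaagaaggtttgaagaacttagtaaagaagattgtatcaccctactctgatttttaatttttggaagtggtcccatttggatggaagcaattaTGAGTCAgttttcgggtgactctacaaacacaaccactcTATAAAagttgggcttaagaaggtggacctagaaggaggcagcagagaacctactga
Mmp10, chr9:7502092-7502391, plus strand: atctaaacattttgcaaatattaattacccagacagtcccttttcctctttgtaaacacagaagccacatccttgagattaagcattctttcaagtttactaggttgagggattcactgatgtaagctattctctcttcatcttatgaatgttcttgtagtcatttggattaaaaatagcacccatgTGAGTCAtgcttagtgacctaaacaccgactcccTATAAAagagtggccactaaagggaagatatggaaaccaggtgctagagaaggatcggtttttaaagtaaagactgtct
Mmp7, chr9:7691840-7692139, plus strand: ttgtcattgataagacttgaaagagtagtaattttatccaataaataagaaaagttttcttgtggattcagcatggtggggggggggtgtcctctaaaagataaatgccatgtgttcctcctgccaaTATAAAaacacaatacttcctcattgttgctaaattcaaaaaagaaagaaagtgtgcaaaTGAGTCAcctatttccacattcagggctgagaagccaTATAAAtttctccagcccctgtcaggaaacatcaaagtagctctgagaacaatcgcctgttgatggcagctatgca

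The AP-1 motif began at base -35 of Mmp13 (minus strand), -46 of Mmp3, -63 of Mmp10 and -63 of Mmp7, counted from the annotated start, and TATAAA began at -16, -7, -29 and -26 in the same genes, with another match at -123 in Mmp7. Mmp7 and Mmp12 each have a second RefSeq start, whose window held neither motif; the Mmp7 window printed is the one with the matches. Of the 34 member genes with a window, 7 held the AP-1 motif, and all 7 (these 4 with Mmp12, Mmp1a and Mmp1b) lie in the cluster. It was in 5.20% of all 32851 windows and in 5.95% of 27025 genes. TATAAA was in 12 of the 34 member genes, in 13.6% of windows and in 15.7% of genes. Members without a window, Mmp2 and Mmp9 among them, were not searched. A match describes these letters and is not evidence of binding: Mmp12 carries both motifs and did not pass in any comparison, and Mmp8, with a TTTATA at -3 and no AP-1 match, had the highest estimate in untreated colitis. Mmp1a and Mmp1b also carry both motifs and were left out as dim.

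Untreated colitis against untreated healthy mice asks how these genes differ after DSS injury. Of the 44 tested members 13 rose and 4 fell, 29.5% and 9.09% of members against 11.7% and 14.4% of all genes called higher and lower. The median log2 change was 0.16 over the members and -0.03 over all genes, and 25 members had an unadjusted p under 0.05. The MMPs took 8 of the 13 rises, ADAMTS proteases 4 and Timp1 the other, while 2 of the 4 falls were ADAMTS-like genes. All 6 changes of at least 2-fold were rises, of Mmp8, Mmp3, Mmp10, Mmp13, Mmp7 and Timp1. Without the 3 arrays that stood apart 19 members passed, with Mmp9 (1.51, adjusted p = 0.00785) and Mmp25 (0.76, adjusted p = 0.00293) among the rises and Mmp17 missing (-0.21, adjusted p = 0.0622).

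Both collagenases that could be tested rose. Mmp8, the collagenase stored in neutrophil granules, had 6.73, 5.71, 10.49 and 6.35 in untreated colitis mice and 4.80, 5.20, 5.17 and 5.02 in untreated healthy mice. Every colitis value lay above every healthy one, with a wide spread between the colitis mice and mouse 7 far above the others. The healthy values all lay below 5.30, the level of the filter on dim values, so the fold rests on a dim baseline. The change was 2.27 ± 0.76 (adjusted p = 0.0332), or 4.82-fold. Mmp13, the main interstitial collagenase of rodents, had 7.75, 6.68, 9.91 and 8.36 in untreated colitis and 6.41, 6.71, 6.47 and 6.87 in untreated healthy colon. The groups overlapped through colitis mouse 6, and the change was 1.56 ± 0.47 (adjusted p = 0.0199). Without untreated colitis mouse 7, Mmp8 stood at 1.21 (adjusted p = 0.111) and Mmp13 at 0.98 (adjusted p = 0.0745), so neither passed, and Mmp8 also did not pass without any single healthy mouse (adjusted p of 0.0553, 0.0585, 0.0692 and 0.0654 without mice 4, 6, 2 and 7).

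The stromelysins Mmp3 and Mmp10, which cleave proteoglycans and laminins and activate other MMP precursors, rose together. Mmp3 had 6.87, 5.37, 8.37 and 6.72 in untreated colitis and 4.90, 5.08, 5.01 and 4.66 in untreated healthy mice, a change of 1.92 ± 0.52 (adjusted p = 0.0107). Mmp10 had 8.10, 6.66, 9.38 and 8.20 in untreated colitis and 6.25, 6.04, 6.32 and 6.33 in untreated healthy mice, a change of 1.85 ± 0.49 (adjusted p = 0.00906). In both genes the groups did not overlap, mouse 7 was highest and mouse 6 lowest of the colitis mice. The healthy Mmp3 values all lay below 5.30, the level of the filter on dim values. Mmp11, also named a stromelysin, was at 0.11 ± 0.12 and did not pass, and its second probe set differed the other way, by -0.35.

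Mmp7, or matrilysin, is a small epithelial MMP that processes defensins in the mouse small intestine. It had 7.45, 7.04, 7.59 and 7.24 in untreated colitis mice and 5.62, 6.07, 5.67 and 5.88 in untreated healthy mice. The 4 colitis mice lay close together and clear of the healthy ones, and the change was 1.52 ± 0.28 (adjusted p = 0.000637), or 2.88-fold. A second Mmp7 probe set, above the filter level on 6 of 20 arrays, differed by 0.03, and the mean of the probe sets gave 0.78. Mmp12, the macrophage metalloelastase, had 5.17, 5.44, 7.74 and 5.96 in untreated colitis and 5.64, 5.75, 5.83 and 5.92 in untreated healthy mice. Its groups overlapped, and 0.29 ± 0.38 (95% interval -0.50 to 1.09, adjusted p = 0.625) did not pass.

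Of the gelatinases, Mmp2 passed and Mmp9 did not. Mmp2, a gelatinase of stromal cells whose precursor is activated by Mmp14 together with Timp2, had 9.86, 9.35, 10.00 and 9.58 in untreated colitis and 8.69, 9.34, 9.50 and 9.07 in untreated healthy mice. The groups overlapped and the change was 0.55 ± 0.18 (adjusted p = 0.0334), a call that was lost without any one of untreated colitis mice 5 and 7 and untreated healthy mice 2 and 7 (adjusted p = 0.0884, 0.110, 0.125 and 0.0777). Its estimate was 0.40 without untreated healthy mouse 2, and it did not pass when these groups were fitted alone (adjusted p = 0.0701). Mmp9, the gelatinase of neutrophils and macrophages, had 7.16, 6.37, 9.15 and 6.93 in untreated colitis and 6.34, 5.93, 6.45 and 6.34 in untreated healthy mice. Mouse 6 lay among the healthy values, and the change of 1.14 ± 0.48 (adjusted p = 0.0904) did not pass, whereas it was 1.48 without that mouse (adjusted p = 0.0311) and 0.56 without mouse 7.

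Among the membrane-type MMPs, Mmp14, which activates the Mmp2 precursor, rose and Mmp17, a lipid-anchored MMP, fell. Mmp14 had 10.23, 9.98, 10.22 and 9.99 in untreated colitis and 9.73, 9.68, 9.79 and 9.71 in untreated healthy mice, without overlap, and changed by 0.38 ± 0.11 (adjusted p = 0.0129). Mmp17 changed by -0.28 ± 0.07 (adjusted p = 0.00700). Mmp25, a lipid-anchored MMP of neutrophils, had 6.47, 5.96, 7.21 and 6.29 in untreated colitis and 5.89, 6.04, 5.96 and 5.68 in untreated healthy mice. Colitis mouse 6 lay within the healthy range, and the change of 0.59 ± 0.22 (adjusted p = 0.0545) did not pass, but it was 0.76 without untreated colitis mouse 6 (adjusted p = 0.0139) and 0.35 without mouse 7. Of the other MMPs Mmp28, known as epilysin, rose by 0.63 ± 0.14 (adjusted p = 0.00297), and Mmp19, Mmp21, Mmp23 and Mmp27 did not pass.

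The proteoglycan-cleaving ADAMTS gave 2 rises and 1 fall among 6 tested. Adamts4, an aggrecanase that also cleaves versican, had 6.34, 6.14, 6.92 and 6.30 in untreated colitis and 5.93, 5.90, 5.91 and 5.64 in untreated healthy mice, and rose by 0.58 ± 0.14 (adjusted p = 0.00613). Adamts1, which cleaves versican, had 7.21, 6.88, 7.78 and 7.01 in untreated colitis and 6.60, 6.75, 6.68 and 6.92 in untreated healthy mice, with overlapping groups and a change of 0.48 ± 0.15 (adjusted p = 0.0249). That call was lost without untreated colitis mouse 7 (0.30, adjusted p = 0.0955) or without untreated healthy mouse 2 or 6 (adjusted p = 0.0663 and 0.0578). Adamts5, the other main aggrecanase, had 6.64, 5.84, 6.79 and 5.64 in untreated colitis and 5.65, 6.21, 6.16 and 6.09 in untreated healthy mice, and the change of 0.20 ± 0.21 (adjusted p = 0.537) did not pass. Adamts8, of the same branch, changed by -0.38 ± 0.08 (adjusted p = 0.00150).

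Adamts3 and Adamts6 were higher in every colitis mouse than in any healthy one. Adamts3, which trims procollagens and activates the lymphatic growth factor VEGF-C, held values of 6.05 to 6.53 in untreated colitis and 5.30 to 5.59 in untreated healthy mice, and rose by 0.89 ± 0.12 (adjusted p = 4.58e-05). Adamts6, a protease of microfibril-rich matrix, had 7.79, 7.07, 6.99 and 7.29 in untreated colitis and 6.31, 6.65, 6.49 and 6.30 in untreated healthy mice, and rose by 0.85 ± 0.15 (adjusted p = 0.000492). Neither group pair overlapped, and both calls held under every alternative in which the gene was tested. The stricter filter left out Adamts3, so its call was not tested there. The ADAMTS-like gene Adamtsl5 had 6.91 to 7.07 in untreated colitis and 7.33 to 7.59 in untreated healthy mice and changed by -0.47 ± 0.07 (adjusted p = 8.26e-05), and Adamtsl1 changed by -0.41 ± 0.08 (adjusted p = 0.00148). The other 3 ADAMTS-like genes, Adamtsl2, Adamtsl3 and Adamtsl4, did not pass.

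The TIMPs did not move together. Timp1, the inducible inhibitor, had 6.84, 5.74, 8.01 and 6.70 in untreated colitis and 5.53, 5.42, 5.24 and 5.49 in untreated healthy mice. All colitis values were higher, with mouse 6 only just so, and the change was 1.40 ± 0.33 (adjusted p = 0.00374), or 2.64-fold. Timp2, which also takes part in activating the Mmp2 precursor, had 9.01, 8.25, 8.99 and 8.60 in untreated colitis and 8.93, 8.95, 9.19 and 9.08 in untreated healthy mice. Timp3, held in the matrix, had 9.20, 8.69, 9.54 and 9.13 in untreated colitis and 9.19, 9.54, 9.55 and 9.62 in untreated healthy mice. Timp2 (-0.32 ± 0.14, adjusted p = 0.10) and Timp3 (-0.34 ± 0.15, adjusted p = 0.103) had negative estimates that did not pass. Both passed without untreated colitis mouse 7 (-0.42 and -0.47, adjusted p = 0.0486 and 0.0241), Timp2 also without colitis mouse 5 (adjusted p = 0.0432) and Timp3 without healthy mouse 2 (adjusted p = 0.0485), and without colitis mouse 6 they were at -0.17 and -0.18. Timp4 was at -0.17 ± 0.20 and did not pass.

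**Figure D1:**
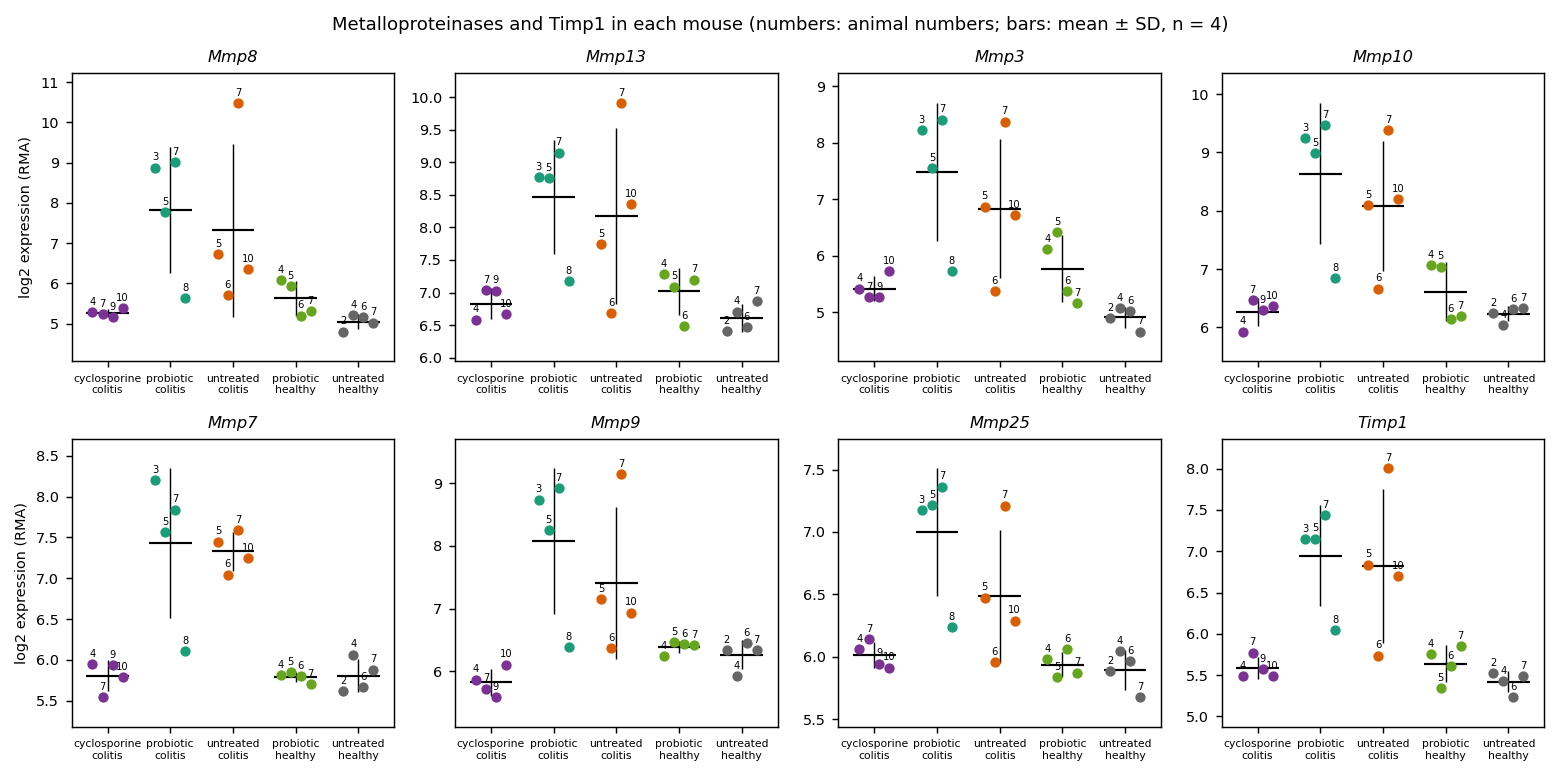
RMA log2 expression of 7 MMPs and Timp1 in each mouse (points, labelled by animal number), with the mean and SD of the 4 mice of a group as bars. Untreated colitis mouse 7 is high and mouse 6 low in most panels, probiotic colitis mouse 8 is the lowest of its group, and the 4 cyclosporine colitis mice sit near the healthy groups.

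The mice of a group differed along the same lines in most of the risen genes. Untreated colitis mouse 7 was the highest of its group in 10 of the 13 risen members, 23 of the 44 tested members and 19.4% of all 16739 genes. Mouse 6 was the lowest in 10 of the 13, 21 of the 44 and 23.8% of all genes. The 13 were called from these same untreated colitis mice, so the counts within the 13 are not independent of that choice. Probiotic colitis mouse 8 was the lowest of its group in 11 of the 13, 27 of the 44 and 31.6% of all genes. Neutrophil markers, summed as the mean log2 value of 9 tested genes, followed that order, with 7.64, 7.00, 8.90 and 7.73 in untreated colitis against 6.28 to 6.57 in untreated healthy mice. Of these 9, 5 rose (Cd177, S100a9, Csf3r and S100a8 among them) and none fell, and the tenth, Camp, was dim. Macrophage markers had the same highest and lowest mice, with 8.55, 7.91, 9.03 and 8.37 in untreated colitis and 7.81 to 7.92 in untreated healthy mice. Of these markers 5 of 10 were higher. Probiotic colitis mouse 8 was the lowest of its group in both lists (7.06 for neutrophil and 8.90 for macrophage markers). Fibroblast markers averaged 9.41 to 10.04 in untreated colitis and 9.35 to 9.65 in untreated healthy mice, with 3 of 9 higher and 1 lower. Smooth muscle markers averaged 10.42 to 10.79 in untreated colitis and 11.13 to 11.26 in untreated healthy mice, with 7 of 8 lower. T cell markers averaged 6.43 to 8.08 in untreated colitis against 5.89 to 6.26 in untreated healthy mice, with 5 of 6 higher, B and plasma cell markers 8.55 to 10.29 in untreated colitis against 7.66 to 8.38 in untreated healthy mice, with 4 of 5 higher, and endothelial markers 7.18 to 7.84 in untreated colitis against 7.16 to 7.46 in untreated healthy mice, with 1 of 8 higher. Colonocyte markers averaged 10.74 to 11.02 in untreated colitis against 11.73 to 11.94 in untreated healthy mice, with 4 of 6 lower, and enteric neuron and glia markers 6.43 to 6.53 in untreated colitis against 6.83 to 7.00 in untreated healthy mice, with 3 of 6 lower. Untreated colitis mouse 6 was also the lowest of its group in the fibroblast, T cell, B and plasma cell and endothelial lists, where mouse 5 was the highest. It was not the lowest in the smooth muscle, colonocyte or enteric neuron and glia lists. The part of these cell types in the MMP, ADAMTS and TIMP changes was not tested.

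**Figure D2:**
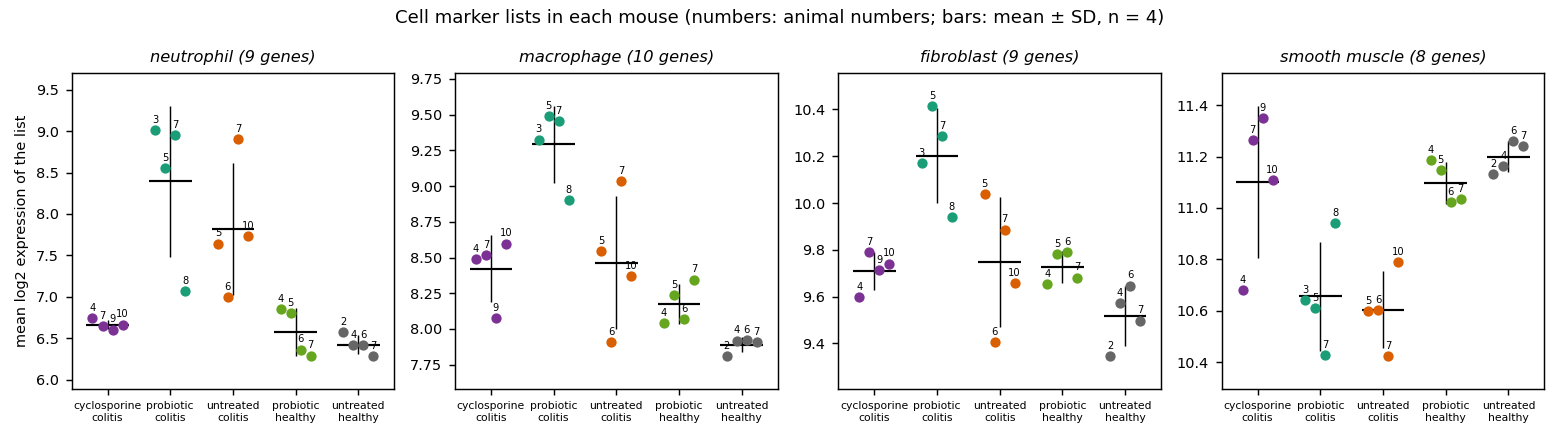
Mean log2 expression of 4 cell marker lists in each mouse (points, labelled by animal number), with the mean and SD of each group of 4 as bars. The neutrophil and macrophage lists place untreated colitis mouse 7 high, and untreated colitis mouse 6 and probiotic colitis mouse 8 low within their groups. The smooth muscle list is lower in probiotic and untreated colitis than in the healthy groups.

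Related genes moved in untreated colitis as well. Of 10 tested cytokines and receptors known to induce MMPs 7 rose and none fell (median 0.94), among them Il1b (3.51), Tnf (1.51), Tnfrsf1b (1.13) and the oncostatin M receptor gene Osmr (1.44). In the plasminogen system, whose product plasmin activates several MMP precursors, 3 of 9 rose and 1 fell. The protease inhibitor Serpina3n (2.83), the activator Plat (1.01) and the urokinase receptor Plaur (1.34) were higher, the plasminogen receptor gene Plgrkt (-0.31) was lower, and the urokinase gene Plau was at -0.00. Among 17 other MMP regulators and partners 5 rose and 5 fell. Lcn2, which binds Mmp9, rose by 2.32 (adjusted p = 0.00663), and Reck, a membrane-bound MMP inhibitor, changed by -0.50 (adjusted p = 0.0106). The ADAM sheddases gave 6 rises, Adam10 (0.53) and Adam17 (0.39) among them, and 2 falls, of Adam33 (-0.55) and Adam15 (-0.27), among 10, and of 7 meprin and astacin genes only the epithelial meprin Mep1a passed (-1.23). Of 12 cathepsins, neutrophil proteases and their inhibitors 5 rose, including Slpi (2.36) and Ctsc (0.87). AP-1 and NF-kB genes gave 4 rises among 11, of Nfkbiz (0.96), Nfkbia (0.59), Nfkb2 (0.57) and Jun (0.37). Of 13 proteoglycan substrates and partners Cd44 (0.93) and Vcan (0.57) rose and Hapln1 (-0.58) fell, and of 12 microfibril partners the cross-linking enzyme Lox rose (1.66) and Ltbp4 fell (-0.77).

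**Figure D3:**
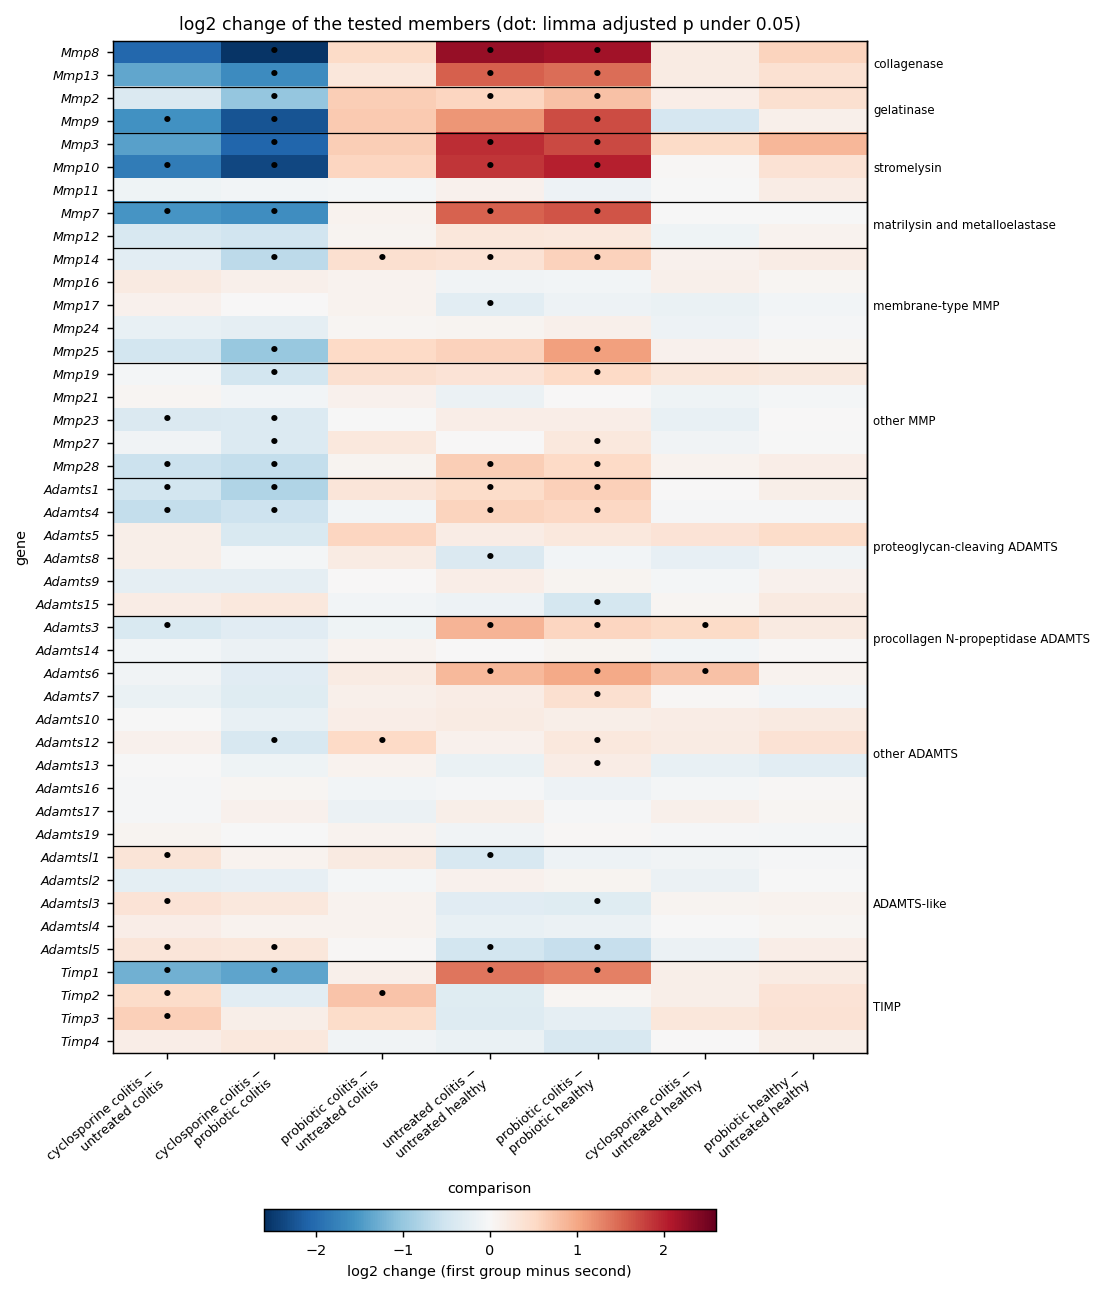
log2 change of the 44 tested members (rows, grouped by role) in 7 comparisons (columns, first group minus second), red for higher and blue for lower in the first group, with dots where the limma adjusted p is under 0.05. The comparisons share groups and are not independent; the column of probiotic healthy minus untreated healthy mice holds no dot.

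Cyclosporine colitis against untreated colitis asks how these genes differ under DSS with the drug in its carrier. The drug was given in methocel and untreated colitis mice had saline, so drug and carrier cannot be told apart. Of the 44 members 5 rose and 9 fell, 11.4% and 20.5% of members against 7.58% and 5.58% of all genes, and the median change was -0.09 (all genes -0.01). The falls were in Mmp7, Mmp10, Mmp9, Timp1, Adamts4, Mmp28, Adamts1, Adamts3 and Mmp23, and the rises in Timp3, Timp2, Adamtsl1, Adamtsl3 and Adamtsl5. When the 2 groups were fitted alone, 4 members passed in place of 14, and 8 passed without untreated colitis mouse 7 and 9 without cyclosporine colitis mouse 7 or 9. The untreated colitis mice are also those compared with healthy mice above, so the 2 sets of changes are not independent. With the 3 arrays that stood apart left out 19 members passed: Mmp8 (-2.59, adjusted p = 0.0119), Mmp3 (-1.90), Mmp13 (-1.84), Mmp2, Mmp14 and Mmp25 were then among the falls, and Adamts3 and Timp2 no longer passed (adjusted p = 0.0619 and 0.0861).

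Mmp7 was lower in all 4 cyclosporine mice than in any untreated colitis mouse, with 5.95, 5.55, 5.94 and 5.79 in cyclosporine colitis against 7.45, 7.04, 7.59 and 7.24 in untreated colitis. The change was -1.52 ± 0.28 (adjusted p = 0.00179), or 2.88-fold lower, and the mean of its probe sets gave -0.86. The stromelysin Mmp10 had 5.93, 6.47, 6.30 and 6.37 in cyclosporine colitis against 8.10, 6.66, 9.38 and 8.20 in untreated colitis, a change of -1.82 ± 0.49 (adjusted p = 0.0195). Mmp3 had 5.42, 5.27, 5.26 and 5.73 in cyclosporine colitis against 6.87, 5.37, 8.37 and 6.72 in untreated colitis, overlapping at untreated mouse 6, and -1.41 ± 0.52 (adjusted p = 0.0799) did not pass. Without that mouse the Mmp3 change was -1.90 (adjusted p = 0.0155) and without mouse 7 it was -0.90. Mmp10 did not pass without untreated colitis mouse 7 or cyclosporine mouse 4 (adjusted p = 0.0746 and 0.0535).

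Mmp8 had 5.29, 5.23, 5.16 and 5.38 in cyclosporine colitis against 6.73, 5.71, 10.49 and 6.35 in untreated colitis. The cyclosporine values lay below or just above 5.30, the level of the filter on dim values. All cyclosporine values were lower and lay close together, but -2.05 ± 0.76 (adjusted p = 0.0807) did not pass, while it was -2.59 without untreated colitis mouse 6 (adjusted p = 0.0323). Mmp13 had 6.58, 7.04, 7.03 and 6.67 in cyclosporine colitis against 7.75, 6.68, 9.91 and 8.36 in untreated colitis, and -1.35 ± 0.47 (adjusted p = 0.0663) did not pass, against -1.84 without that mouse (adjusted p = 0.00806). Without untreated colitis mouse 7 the estimates were -1.0 for Mmp8 and -0.77 for Mmp13. Mmp9 had 5.87, 5.73, 5.59 and 6.11 in cyclosporine colitis against 7.16, 6.37, 9.15 and 6.93 in untreated colitis, and fell without overlap by 1.58 on the log2 scale (adjusted p = 0.0363). It did not pass without untreated colitis mouse 5 or 7 or cyclosporine mouse 4, 7 or 9, with adjusted p from 0.0528 to 0.121, and its estimate was -1.0 without untreated colitis mouse 7.

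Of the gelatinase pair and its activator, Mmp2 had 9.12, 9.29, 9.40 and 9.48 in cyclosporine colitis against 9.86, 9.35, 10.00 and 9.58 in untreated colitis, and Mmp14 had 9.78, 9.86, 9.73 and 9.98 in cyclosporine colitis against 10.23, 9.98, 10.22 and 9.99 in untreated colitis. Mmp2 (-0.38 ± 0.18, adjusted p = 0.188) and Mmp14 (-0.27 ± 0.11, adjusted p = 0.106) did not pass. Mmp25 had 6.06, 6.14, 5.95 and 5.91 in cyclosporine colitis against 6.47, 5.96, 7.21 and 6.29 in untreated colitis, and -0.47 ± 0.22 (adjusted p = 0.170) did not pass, with -0.23 without untreated colitis mouse 7. Mmp12 had 5.70, 5.82, 5.61 and 5.53 in cyclosporine colitis, and -0.41 ± 0.38 against untreated colitis did not pass. Mmp28 changed by -0.55 ± 0.14 (adjusted p = 0.0157), which missed without cyclosporine mouse 9 (adjusted p = 0.0548), and Mmp23 by -0.37 ± 0.09 (adjusted p = 0.0134). The Mmp23 call was lost when these groups were fitted alone and with animal number as a factor (adjusted p up to 0.143).

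Among the ADAMTS, Adamts4 had 5.82, 6.08, 5.62 and 5.73 in cyclosporine colitis against 6.34, 6.14, 6.92 and 6.30 in untreated colitis, and changed by -0.61 ± 0.14 (adjusted p = 0.00948). Adamts1 had 6.58, 6.92, 6.56 and 6.91 in cyclosporine colitis against 7.21, 6.88, 7.78 and 7.01 in untreated colitis and changed by -0.48 ± 0.15 (adjusted p = 0.0452), and Adamts3 by -0.39 ± 0.12 (adjusted p = 0.0361). Adamts4 passed whichever array was left out, but not when these groups were fitted alone or with animal number as a factor (adjusted p up to 0.0652). Adamts1 missed without untreated colitis mouse 5 or 7 or cyclosporine mouse 4, 7 or 9 (adjusted p = 0.0547 to 0.151), and Adamts3 without untreated colitis mouse 6 or 7 or any cyclosporine mouse (0.0541 to 0.115). Adamts5 had 6.34, 6.52, 6.20 and 6.49 in cyclosporine colitis, and 0.16 ± 0.21 against untreated colitis did not pass, nor did Adamts6 (-0.09 ± 0.15). The ADAMTS-like genes moved the other way, Adamtsl5 by 0.32 ± 0.07 (adjusted p = 0.00438), Adamtsl1 by 0.33 ± 0.08 (adjusted p = 0.0151) and Adamtsl3 by 0.36 ± 0.11 (adjusted p = 0.0375). Without single arrays Adamtsl5 passed throughout, Adamtsl1 missed without untreated colitis mouse 7 or 10 (adjusted p = 0.0522 and 0.0503), and Adamtsl3 without either of these or without cyclosporine mouse 7, 9 or 10 (0.0801 to 0.124).

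The TIMPs split between cyclosporine and untreated colitis. Timp1 had 5.49, 5.77, 5.57 and 5.49 in cyclosporine colitis against 6.84, 5.74, 8.01 and 6.70 in untreated colitis, overlapping at untreated mouse 6, and changed by -1.24 ± 0.33 (adjusted p = 0.0170), which missed without untreated colitis mouse 7 (adjusted p = 0.0532). Timp2 had 8.94, 9.33, 9.06 and 9.40 in cyclosporine colitis against 9.01, 8.25, 8.99 and 8.60 in untreated colitis and rose by 0.47 ± 0.14 (adjusted p = 0.0341). Timp3 had 9.45, 9.91, 9.84 and 9.87 in cyclosporine colitis against 9.20, 8.69, 9.54 and 9.13 in untreated colitis and rose by 0.63 ± 0.15 (adjusted p = 0.00901). Timp3 passed whichever array was left out, and Timp2 missed without untreated colitis mouse 6 or 10 or cyclosporine mouse 7 or 10 (adjusted p = 0.0817 to 0.10). Timp4 was at 0.18 ± 0.20 and did not pass.

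Marker lists differed between the same groups. Neutrophil markers averaged 6.60 to 6.74 in cyclosporine colitis against 7.00 to 8.90 in untreated colitis, with 3 of 9 lower (Cd177, Cxcr2 and S100a9). Macrophage markers averaged 8.08 to 8.60 in cyclosporine colitis against 7.91 to 9.03 in untreated colitis, and in the limma fit 0 of 10 passed, with 1 at an unadjusted p under 0.05. Smooth muscle markers averaged 10.68 to 11.35 in cyclosporine colitis against 10.42 to 10.79 in untreated colitis, with 6 of 8 higher, fibroblast markers 9.60 to 9.79 in cyclosporine colitis against 9.41 to 10.04 in untreated colitis, with 1 of 9 higher and 1 lower, and colonocyte markers 11.48 to 11.56 in cyclosporine colitis against 10.74 to 11.02 in untreated colitis, with 5 of 6 higher. B and plasma cell markers averaged 8.0 to 9.35 in cyclosporine colitis against 8.55 to 10.29 in untreated colitis, with 1 of 5 lower, and enteric neuron and glia markers 6.61 to 7.02 in cyclosporine colitis against 6.43 to 6.53 in untreated colitis, with 2 of 6 higher. T cell markers averaged 6.32 to 6.94 in cyclosporine colitis against 6.43 to 8.08 in untreated colitis, where 0 of 6 passed in the limma fit and 3 had an unadjusted p under 0.05. Their part in the result was not tested. Of the inducing cytokines and receptors 7 of 10 fell, among them Tnf (-1.23), Il1b (-2.49), Tnfrsf1b (-0.83) and Tgfb1 (-0.56). In the plasminogen list Serpina3n (-1.50), Plat (-0.79) and Plaur (-1.18) fell, and in the regulator list Reck (0.48), Fbln1 (0.45), Thbs2 (0.40) and Pcsk6 (0.35) rose while Lcn2 (-1.35, adjusted p = 0.137) did not pass. Mep1a rose by 1.14, and Slpi (-1.64) and Ctsc (-0.42) fell among 12 cathepsins and protease inhibitors.

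Against untreated healthy mice, cyclosporine colitis mice still differed in 2 members. Adamts6 (6.98 to 7.37 in cyclosporine colitis against 6.30 to 6.65 in untreated healthy mice) rose by 0.76 ± 0.15 (adjusted p = 0.00949) and Adamts3 (5.80 to 6.03 in cyclosporine colitis against 5.30 to 5.59 in untreated healthy mice) by 0.49 ± 0.12 (adjusted p = 0.0238). No member fell, and the 2 rises are 4.55% of members against 2.64% of all genes higher and 3.38% lower. Adamts3 missed without untreated healthy mouse 2 or 7 or cyclosporine mouse 7 or 10 (adjusted p = 0.0512 to 0.0674). For the genes with the largest rises in untreated colitis the estimates lay near 0, with wide intervals: 0.03 for Mmp10 (95% interval -0.99 to 1.06), -0.00 for Mmp7 (-0.59 to 0.59), 0.22 for Mmp8 (-1.37 to 1.81), 0.22 for Mmp13 (-0.78 to 1.21) and 0.16 for Timp1 (-0.52 to 0.84). Mmp3 was at 0.51 (-0.59 to 1.60), and all 4 cyclosporine values, 5.42, 5.27, 5.26 and 5.73, lay above the untreated healthy ones. These intervals hold changes of up to 1.81 for Mmp8. The untreated healthy values of Mmp8 and Mmp3 lay below 5.30, the level of the filter on dim values. The Mmp3 values of 5.27 and 5.26 in cyclosporine colitis did too. Macrophage markers averaged 8.08 to 8.60 in cyclosporine colitis against 7.81 to 7.92 in untreated healthy mice, with 3 of 10 higher. In that order, T cell markers averaged 6.32 to 6.94 against 5.89 to 6.26, with 2 of 6 higher. Colonocyte markers averaged 11.48 to 11.56 against 11.73 to 11.94, with 2 of 6 lower. Of the neutrophil list 1 of 9 was higher. No fibroblast or smooth muscle marker passed. Their part in the result was not tested.

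**Figure D4:**
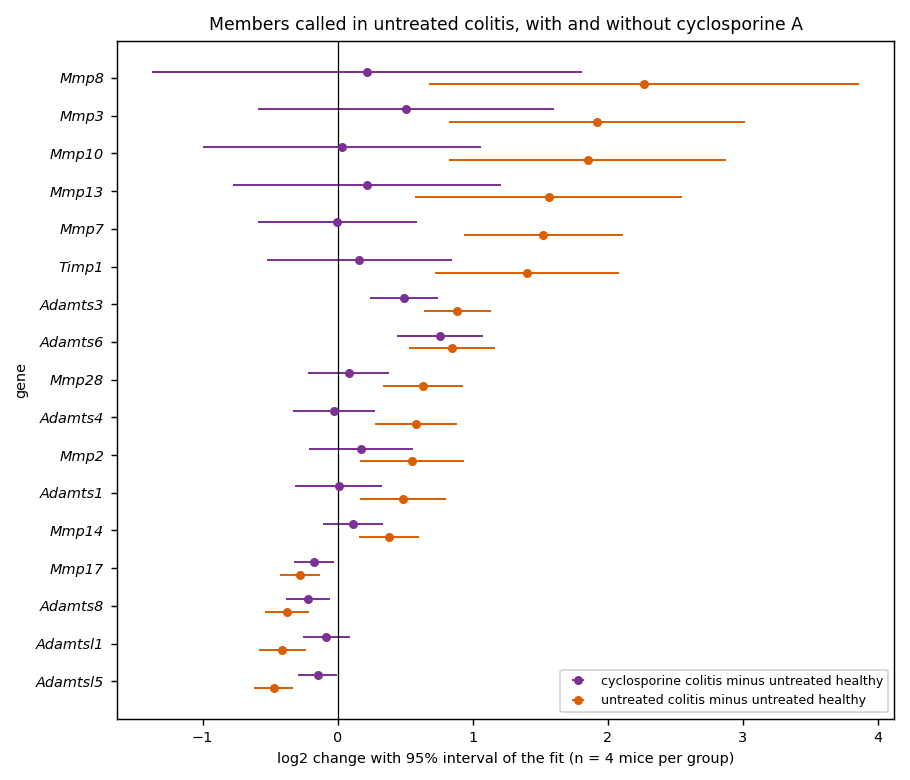
log2 change against untreated healthy mice, with the 95% interval of the fit, of the 17 members called in untreated colitis, for cyclosporine colitis (upper point of each pair) and untreated colitis (lower point). Mmp7 stands at -0.00 in cyclosporine colitis and 1.52 in untreated colitis, while Adamts6 stands at 0.76 and 0.85; both sets of points share the untreated healthy mice.

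Probiotic colitis against untreated colitis asks what the probiotic mixture does under DSS. Of the 44 members 3 rose and none fell, 6.82% of members against 2.13% of all genes higher and 0.669% lower, with a median of 0.11 (all genes -0.02) and 11 members at an unadjusted p under 0.05. The rises were in Timp2, Adamts12 and Mmp14. Without the 3 arrays that stood apart 5 members passed, these 3 and Mmp2 (0.68, adjusted p = 0.0142) among them. In a fit of these 2 groups alone 0 members and 0 of all genes passed, and with single arrays left out the count ran from 1 (without probiotic colitis mouse 5) to 8 (without probiotic colitis mouse 8, and likewise without mouse 7 of untreated colitis).

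Timp2 had 9.33, 9.59, 9.60 and 9.28 in probiotic colitis against 9.01, 8.25, 8.99 and 8.60 in untreated colitis, and rose without overlap by 0.74 ± 0.14 (adjusted p = 0.0116). Mmp14, its partner in activating the Mmp2 precursor, had 10.61, 10.72, 10.69 and 10.09 in probiotic colitis against 10.23, 9.98, 10.22 and 9.99 in untreated colitis and rose by 0.42 ± 0.11 (adjusted p = 0.0406). Adamts12, a protease that cleaves cartilage oligomeric matrix protein, held values of 7.79 to 8.04 in probiotic colitis and 7.23 to 7.59 in untreated colitis and rose by 0.52 ± 0.10 (adjusted p = 0.00990). The Adamts12 call held with any single array left out, but not when these groups were fitted alone or with animal number as a factor (adjusted p up to 0.134). Timp2 missed without probiotic colitis mouse 5 (adjusted p = 0.0569), and Mmp14 missed without probiotic colitis mouse 3, 5 or 7, or untreated colitis mouse 6 or 10, at adjusted p values of 0.107 to 0.158.

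Mmp2 had 10.41, 10.57, 10.50 and 9.84 in probiotic colitis against 9.86, 9.35, 10.00 and 9.58 in untreated colitis, and 0.63 ± 0.18 (adjusted p = 0.0676) did not pass. Timp3 had 9.62, 9.76, 9.74 and 9.32 in probiotic colitis against 9.20, 8.69, 9.54 and 9.13 in untreated colitis, and 0.47 ± 0.15 (adjusted p = 0.0892) did not pass. Both passed without untreated colitis mouse 7 (adjusted p = 0.0443 and 0.0247) or probiotic colitis mouse 8 (adjusted p = 0.0108 and 0.0289), and Mmp2 also without untreated colitis mouse 5 (adjusted p = 0.0464). Adamts5 had 6.49, 7.26, 6.86 and 6.53 in probiotic colitis against 6.64, 5.84, 6.79 and 5.64 in untreated colitis, and 0.56 ± 0.21 (adjusted p = 0.168) did not pass. Its estimate was 0.36 without untreated colitis mouse 10.

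The genes with the largest rises in untreated colitis did not pass, and their intervals were wide. Mmp8 had 8.88, 7.76, 9.01 and 5.63 in probiotic colitis, a change against untreated colitis of 0.50 (95% interval -1.09 to 2.09). Mmp3 had 8.23, 7.56, 8.41 and 5.73 (0.65, interval -0.45 to 1.74), and Mmp10 had 9.24, 8.99, 9.47 and 6.84 (0.55, interval -0.47 to 1.58). Mmp13 had 8.78, 8.76, 9.15 and 7.18 (0.29, interval -0.70 to 1.28). In these genes probiotic colitis mouse 8 was the lowest of its group, near the lowest untreated colitis mouse. Mmp7 had 8.20, 7.57, 7.84 and 6.11 (0.10, interval -0.49 to 0.69), Mmp9 had 8.74, 8.26, 8.93 and 6.39 (0.67, interval -0.33 to 1.68) and Mmp12 had 6.27, 5.75, 7.02 and 5.60 (0.08, interval -0.72 to 0.88). Mmp25, with 7.17, 7.22, 7.36 and 6.24 (0.52 ± 0.22, adjusted p = 0.219), passed without untreated colitis mouse 7 (0.76, adjusted p = 0.0347) or probiotic colitis mouse 8 (0.77, adjusted p = 0.0175). Timp1 had 7.15, 7.15, 7.44 and 6.05 (0.13, interval -0.56 to 0.81) and Adamts4 6.14, 6.26, 6.70 and 6.32 (-0.07, interval -0.37 to 0.23). Adamts1 had 7.29, 7.44, 7.77 and 7.60 (0.30 ± 0.15, adjusted p = 0.306) and passed without untreated colitis mouse 7 (0.49, adjusted p = 0.0334). Without probiotic colitis mouse 8 most of these estimates were higher. Mmp7 then passed (0.54, adjusted p = 0.0337), as did Mmp25. The others did not, with 1.23 for Mmp8 (adjusted p = 0.334), 1.23 for Mmp3 (0.109), 1.15 for Mmp10 (0.0870), 0.72 for Mmp13 (0.388) and 1.24 for Mmp9 (0.0695). Timp1 was at 0.43 (0.471), Mmp12 at 0.26 (0.771), Adamts4 at -0.06 (0.878) and Adamts1 at 0.28 (0.361).

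Macrophage markers averaged 8.90 to 9.49 in probiotic colitis against 7.91 to 9.03 in untreated colitis, with 8 of 10 higher, among them Adgre1 (0.97), C1qb (1.29), Mpeg1 (1.01) and Csf1r (1.04). Fibroblast markers averaged 9.94 to 10.42 in probiotic colitis against 9.41 to 10.04 in untreated colitis, with 4 of 9 higher (Dcn, Lum, Col1a2 and Pdgfrb). Endothelial markers averaged 7.81 to 8.14 in probiotic colitis against 7.18 to 7.84 in untreated colitis, with 3 of 8 higher, and neutrophil markers 7.06 to 9.01 in probiotic colitis against 7.00 to 8.90 in untreated colitis, with 0 of 9 passing in the limma fit and 3 at an unadjusted p under 0.05. T cell markers averaged 7.38 to 7.99 in probiotic colitis against 6.43 to 8.08 in untreated colitis, with 1 of 6 higher, and colonocyte markers 10.13 to 10.83 in probiotic colitis against 10.74 to 11.02 in untreated colitis, with 1 of 6 lower. The part of these cell types in the rises of Timp2, Mmp14 and Adamts12 was not tested. Of the related genes Dcn (0.76), Bgn (0.70) and Lum (0.67), proteoglycans of the fibroblast matrix, rose among 13 proteoglycan genes, the first and last of them being in the fibroblast list too, and Fbln5 (0.59) and Efemp1 (0.47) rose among 12 microfibril partners. Plau (0.50), Fbln1 (0.59), Pcolce (0.34), Ctsh (0.52), Ctsb (0.30) and Ctsc (0.54) rose, while 0 of 10 inducing cytokines and receptors and 0 of 10 ADAMs passed, with 4 and 3 at an unadjusted p under 0.05.

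**Figure D5:**
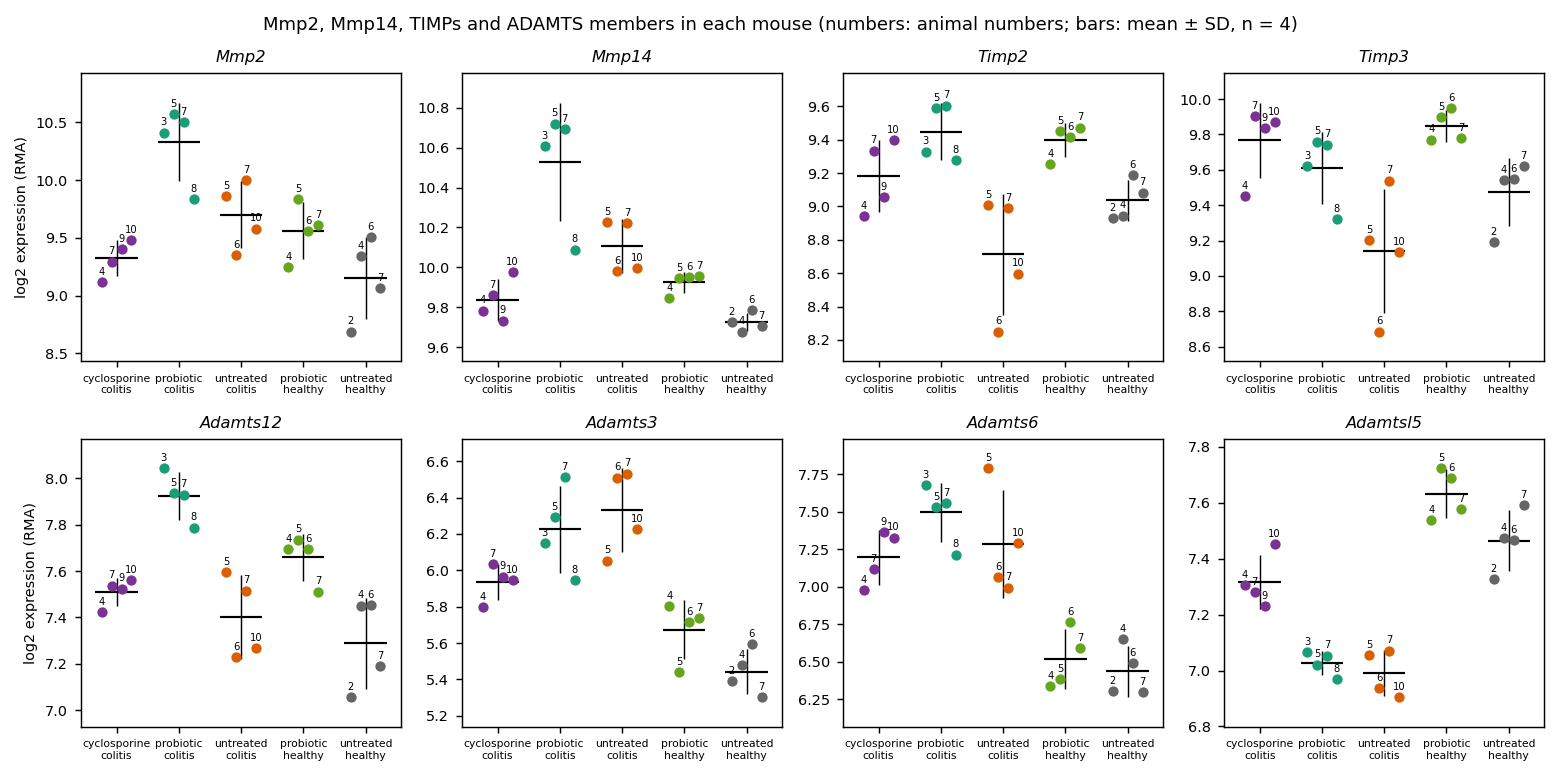
RMA log2 expression of Mmp2, Mmp14, Timp2, Timp3, 3 ADAMTS genes and Adamtsl5 in each mouse (points, labelled by animal number), with the mean and SD of the 4 mice of a group as bars. The probiotic colitis mice lie above the untreated colitis mice for Timp2, and Adamts3 and Adamts6 are higher in all 3 colitis groups than in untreated healthy mice.

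Probiotic healthy against untreated healthy mice asks what the mixture does without DSS, and no member passed. Of 44 members 0 were called by limma, as were 0 of all genes (background 0 in both directions), while 8 members and 1511 genes had an unadjusted p under 0.05, and the smallest adjusted p of a member was 0.301. Mmp3 had 6.12, 6.42, 5.38 and 5.16 in probiotic healthy mice against 4.90, 5.08, 5.01 and 4.66 in untreated healthy mice, and 0.86 ± 0.52 (95% interval -0.24 to 1.95) did not pass although the groups did not overlap. These untreated healthy values lay below 5.30, the level of the filter on dim values. Mmp8 had 6.08, 5.93, 5.20 and 5.31 in probiotic healthy mice (0.58, interval -1.01 to 2.17), Mmp10 7.07, 7.04, 6.15 and 6.19 (0.38, interval -0.65 to 1.41) and Mmp13 7.29, 7.09, 6.49 and 7.20 (0.40, interval -0.59 to 1.39). Mice 4 and 5 were the higher ones for Mmp3, Mmp8 and Mmp10.

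Of the 44 estimates 32 were positive, with a median of 0.11 (all genes -0.01), and none passed. The lowest unadjusted p values were those of Adamts13, with -0.27 ± 0.07 and every probiotic healthy mouse below every untreated healthy one, and Adamts12, with 0.37 ± 0.10 and every probiotic healthy mouse above, both at an adjusted p of 0.301. Mmp2 had 9.25, 9.84, 9.56 and 9.61 in probiotic healthy mice (0.41 ± 0.18 against untreated healthy mice) and Mmp14 9.85, 9.95, 9.95 and 9.96 (0.20 ± 0.11). Timp2 had 9.25, 9.45, 9.42 and 9.47 (0.36 ± 0.14), Timp3 9.77, 9.90, 9.95 and 9.78 (0.37 ± 0.15) and Adamts5 6.45, 6.40, 6.49 and 6.67 (0.47 ± 0.21). Mouse 4 was the lowest of its group for Mmp14, Timp2, Timp3 and Mmp2. Of other MMPs, Mmp7 had 5.82, 5.85, 5.80 and 5.70 (-0.02 ± 0.28), Mmp9 6.24, 6.47, 6.44 and 6.42 (0.13 ± 0.48), Mmp12 5.78, 5.84, 5.66 and 6.22 (0.09 ± 0.38) and Mmp25 5.98, 5.83, 6.06 and 5.87 (0.04 ± 0.22). Timp1 had 5.75, 5.34, 5.61 and 5.85 (0.22 ± 0.33), Adamts1 7.04, 6.79, 6.80 and 6.95 (0.16 ± 0.15), Adamts4 5.79, 5.96, 5.80 and 5.71 (-0.03 ± 0.14) and Adamts6 6.34, 6.38, 6.77 and 6.59 (0.08 ± 0.15). None of these 8 passed, and in each of them the probiotic healthy and untreated healthy mice overlapped. In Mmp14, Mmp19, Timp2, Timp3 and Adamts5 the 2 groups did not overlap, and these genes did not pass either.

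Probiotic colitis against probiotic healthy mice repeats the colitis comparison in other animals. Of the 44 members 20 rose and 3 fell, 45.5% and 6.82% of members against 13.6% and 16.1% of all genes. All 13 members that rose in untreated colitis were among the 20, 100% of the first list and 65.0% of the second, where over all genes 1385 of the 1957 that rose in untreated colitis did so here, 70.8% of the first list and 60.7% of the second. Mmp8 rose by 2.19 ± 0.76 (adjusted p = 0.0353), Mmp10 by 2.03 ± 0.49 (adjusted p = 0.00379), Mmp3 by 1.71 ± 0.52 (adjusted p = 0.0177), Mmp7 by 1.64 ± 0.28 (adjusted p = 0.000202), Mmp13 by 1.45 ± 0.47 (adjusted p = 0.0257) and Timp1 by 1.31 ± 0.33 (adjusted p = 0.00467). The 7 others were Mmp9 (1.69 ± 0.48, adjusted p = 0.0119), Mmp25 (1.06 ± 0.22, adjusted p = 0.00108), Mmp19, Mmp27, Adamts7, Adamts12 and Adamts13. Adamtsl5 fell again (-0.60 ± 0.07, adjusted p = 4.44e-06), with Adamts15 (-0.45 ± 0.13) and Adamtsl3 (-0.31 ± 0.11). Without probiotic colitis mouse 7 the count was 14 in place of 23, and without the 3 arrays that stood apart it was 23. Mmp8, Mmp3 and Mmp13 each missed without probiotic colitis mouse 3 or 7 or probiotic healthy mouse 6, Mmp8 and Mmp13 also without probiotic colitis mouse 5, Mmp8 and Mmp3 without healthy mouse 7 and Mmp8 without healthy mouse 5, with adjusted p up to 0.118, 0.0706 and 0.0885. Mmp9 missed without probiotic colitis mouse 7 (adjusted p = 0.0507). Adamts12 missed without any one of the 8 arrays other than probiotic colitis mouse 8 (adjusted p = 0.0529 to 0.133). Adamts13 missed without probiotic colitis mouse 3, 5 or 7 or probiotic healthy mouse 4, 5 or 6 (0.0698 to 0.138), and Adamtsl3 without probiotic colitis mouse 3, 7 or 8 or probiotic healthy mouse 4, 6 or 7 (0.0506 to 0.130). Mmp27 missed without probiotic colitis mouse 7 or 8 or probiotic healthy mouse 5 or 7 (0.0550 to 0.128) and without the 3 arrays that stood apart (0.0640). Adamts7 missed without probiotic colitis mouse 7 (0.0647) and Adamts15 without mouse 3 (0.0558).

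Marker lists differed between probiotic colitis and probiotic healthy mice too. Neutrophil markers averaged 7.06 to 9.01 in probiotic colitis against 6.29 to 6.85 in probiotic healthy mice, with 8 of 9 higher, and macrophage markers 8.90 to 9.49 in probiotic colitis against 8.04 to 8.34 in probiotic healthy mice, with 8 of 10 higher. Fibroblast markers averaged 9.94 to 10.42 in probiotic colitis against 9.65 to 9.79 in probiotic healthy mice, with 6 of 9 higher, and endothelial markers 7.81 to 8.14 in probiotic colitis against 7.61 to 7.69 in probiotic healthy mice, with 4 of 8 higher. T cell markers averaged 7.38 to 7.99 in probiotic colitis against 6.13 to 6.27 in probiotic healthy mice, with 6 of 6 higher, and B and plasma cell markers 9.92 to 10.14 in probiotic colitis against 7.50 to 8.34 in probiotic healthy mice, with 5 of 5 higher. Colonocyte markers averaged 10.13 to 10.83 in probiotic colitis against 11.65 to 11.80 in probiotic healthy mice, with 5 of 6 lower, smooth muscle markers 10.43 to 10.94 in probiotic colitis against 11.02 to 11.19 in probiotic healthy mice, with 5 of 8 lower, and enteric neuron and glia markers 6.41 to 6.58 in probiotic colitis against 6.86 to 7.07 in probiotic healthy mice, with 4 of 6 lower. Their part in the changes of these proteases and inhibitors was not tested.

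The difference between these colitis changes, an interaction of DSS with the probiotic, passed for 0 members and 0 of all genes (background 0 in both directions), with 3 members and 1446 genes at an unadjusted p under 0.05. The smallest adjusted p of a member was 0.343. The genes that passed in probiotic mice and not in untreated mice, such as Mmp9 and Mmp25, are therefore not shown to differ between them: the interaction was 0.55 ± 0.68 (95% interval -0.88 to 1.97) for Mmp9 and 0.47 ± 0.31 (-0.18 to 1.12) for Mmp25. The lowest p was that of Adamts13, a protease that cleaves von Willebrand factor, whose interaction was 0.36 ± 0.10 (0.16 to 0.57), with a change of 0.19 in probiotic mice and -0.17 in untreated mice.

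Cyclosporine colitis against probiotic colitis gave 17 falls among the 44 members and 1 rise, 38.6% and 2.27% of members against 12.0% of all genes lower and 11.3% higher. The median was -0.28 (all genes 0.01). The MMPs took 13 of the 17 falls. Mmp10 changed by -2.37 ± 0.49 (adjusted p = 0.00191), Mmp9 by -2.25 ± 0.48 (adjusted p = 0.00243), Mmp8 by -2.55 ± 0.76 (adjusted p = 0.0200), Mmp3 by -2.06 ± 0.52 (adjusted p = 0.00758), Mmp13 by -1.64 ± 0.47 (adjusted p = 0.0169) and Mmp7 by -1.62 ± 0.28 (adjusted p = 0.000548). Mmp2 (-1.01 ± 0.18, adjusted p = 0.000794) and Mmp14 (-0.69 ± 0.11, adjusted p = 0.000242) fell in this comparison, as did Mmp25 (-0.98 ± 0.22), Timp1 (-1.37 ± 0.33, adjusted p = 0.00514), Adamts1 (-0.78 ± 0.15), Adamts4 (-0.54 ± 0.14) and Adamts12 (-0.41 ± 0.10). Adamtsl5 was the single rise (0.29 ± 0.07, adjusted p = 0.00489), and Timp2 (-0.27 ± 0.14) and Timp3 (0.15 ± 0.15) did not pass. Mmp8 missed without probiotic colitis mouse 3 or 7, Mmp13 without mouse 3, 5 or 7 (adjusted p up to 0.0766 and 0.0648) and Adamts4 without mouse 7 (adjusted p = 0.0515). The drug and the mixture were given on different schedules and in different carriers, which this comparison cannot tell apart from the agents. Macrophage markers averaged 8.08 to 8.60 in cyclosporine colitis against 8.90 to 9.49 in probiotic colitis (7 of 10 lower), neutrophil markers 6.60 to 6.74 in cyclosporine colitis against 7.06 to 9.01 in probiotic colitis (7 of 9 lower) and fibroblast markers 9.60 to 9.79 in cyclosporine colitis against 9.94 to 10.42 in probiotic colitis (6 of 9 lower, 1 higher). T cell markers averaged 6.32 to 6.94 in cyclosporine colitis against 7.38 to 7.99 in probiotic colitis (6 of 6 lower), B and plasma cell markers 8.0 to 9.35 in cyclosporine colitis against 9.92 to 10.14 in probiotic colitis (5 of 5 lower) and endothelial markers 7.52 to 7.70 in cyclosporine colitis against 7.81 to 8.14 in probiotic colitis (5 of 8 lower). Smooth muscle markers averaged 10.68 to 11.35 in cyclosporine colitis against 10.43 to 10.94 in probiotic colitis (7 of 8 higher), colonocyte markers 11.48 to 11.56 in cyclosporine colitis against 10.13 to 10.83 in probiotic colitis (5 of 6 higher) and enteric neuron and glia markers 6.61 to 7.02 in cyclosporine colitis against 6.41 to 6.58 in probiotic colitis (3 of 6 higher). The part of these cell types in the result was not tested.

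Set side by side over the 5 groups, the members followed several patterns, given here as group mean ± SD of 4 mice. Mmp8 averaged 5.27 ± 0.09 in cyclosporine colitis, 7.82 ± 1.56 in probiotic colitis, 7.32 ± 2.15 in untreated colitis, 5.63 ± 0.44 in probiotic healthy and 5.05 ± 0.18 in untreated healthy mice. Its spread was wide in the DSS groups without the drug and narrow elsewhere, while the fit uses 1 spread for all groups. The Mmp8 values of cyclosporine colitis and untreated healthy mice lay below or near 5.30, the level of the filter on dim values. RMA compresses differences of dim probe sets. Mmp7 averaged 5.81 ± 0.19 in cyclosporine colitis, 7.43 ± 0.92 in probiotic colitis, 7.33 ± 0.24 in untreated colitis, 5.79 ± 0.06 in probiotic healthy and 5.81 ± 0.21 in untreated healthy mice, so that the cyclosporine mean lay with the healthy means. Adamts6 averaged 7.20 ± 0.18 in cyclosporine colitis, 7.50 ± 0.20 in probiotic colitis, 7.29 ± 0.36 in untreated colitis, 6.52 ± 0.20 in probiotic healthy and 6.44 ± 0.17 in untreated healthy mice, with all colitis means above both healthy means. Timp2 averaged 9.18 ± 0.22 in cyclosporine colitis, 9.45 ± 0.17 in probiotic colitis, 8.71 ± 0.36 in untreated colitis, 9.40 ± 0.10 in probiotic healthy and 9.04 ± 0.12 in untreated healthy mice, and here untreated colitis had the lowest mean. The order probiotic colitis, untreated colitis, probiotic healthy, cyclosporine colitis and untreated healthy, high to low, held for the means of Mmp8, Mmp3, Mmp10, Mmp13 and Timp1. Of the neighbours in that order, probiotic and untreated colitis did not differ by the test for any of the 5 genes, nor did cyclosporine colitis and untreated healthy mice, and probiotic healthy mice were set against neither untreated nor cyclosporine colitis.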

How the data were processed

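Middle colon RNA of 20 mice was hybridised to 1 Affymetrix array each, in 5 groups of 4 named by disease and treatment in the sample labels. The values are log2 expression that the authors deposited after RMA, per the submitters' processing notes; its version is not given in the sources used here, and RMA compresses differences of dim probe sets. The table lists 41801 probe sets, of which 29195 have a value on every array and 22360 of those have 1 symbol in the platform annotation. The deposited log2 values were used without further normalisation.

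A probe set was kept if it passed 5.30, the 25th percentile of the values, on at least 4 arrays, and a gene with several was read from the probe set with the highest mean. limma 3.58.1 in R 4.3.3 fitted the 5 group means to all 16739 genes (lmFit, eBayes, 15 residual degrees of freedom), each comparison was a contrast, and p was adjusted by Benjamini-Hochberg over all genes. Changes in the text have standard errors from this fit, and intervals are 95%. In data simulated with known changes, the fit recovered 98.48 to 100% of genes with a log2 change of 1 or 2 and 67.16 to 83.58% of those with 0.5, and 3.76 to 6.32% of its calls were false. Each simulated gene had the same spread in every group, few genes were changed, and not every comparison was simulated. The recovered shares therefore do not cover members with unequal spreads, such as Mmp8. Its change of -2.05 between cyclosporine and untreated colitis did not pass.

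Values of every array are given for members that passed with a log2 change of at least 1, and for Mmp2, Mmp3, Mmp7 to Mmp10, Mmp12 to Mmp14, Timp1 to Timp3, Adamts1, Adamts4 and Adamts5; of each list of related genes up to 4 with the smallest p are named, and Il1b, Tnf, Lcn2, Plau, Plaur and Reck; 1 further gene of that rule is not reported here. The members and lists were chosen with earlier results of these data known. Mmp15 and Adamts2 were not analysed here, nor was 1 probe set that Mmp24 shares with another symbol. All 44 tested members were found in the RefSeq table by gene ID. Mice were housed 5 to a cage, and cages were not analysed here. Arrays give no counting depth, and 4 mice a group limit the precision. Alternatives changed the filter, the normalisation, the probe set rule, the eBayes prior, array weights, the groups fitted, a block on animal number and the arrays used.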

Additional observations from a re-analysis of the deposited data

Results flagged for a closer look

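In 16 members whose values are given for every array, 80 groups of 4 mice were screened for a mouse whose gap to the nearest of the others took up more of the group's range than Dixon's 95% critical value allows. Chance alone picks out about 1 in 20 groups, and 4 of the 80 were picked out. Mmp25 had 6.24 in probiotic colitis mouse 8, where the other mice of the group had 7.17 to 7.36. Timp3 had 9.45 in cyclosporine colitis mouse 4, against 9.84 to 9.91 in the others. Mmp14 had 9.85 in probiotic healthy mouse 4, with the others at 9.95 to 9.96, and Adamts4 had 5.64 in untreated healthy mouse 7, with the others at 5.90 to 5.93.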

How the results depend on the processing

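Of 77 changes of members that passed, 39 passed under every alternative in which the gene was tested, 38 lost the call under at least 1, and 0 turned round. A gene removed by the stricter filter, such as Adamts3, was not tested under it and is not counted as a loss. The run that tested every probe set one by one is not in this tally. Probiotic against untreated colitis had 3 members, and 9 with array weights, 0 when only these groups were fitted, 5 without the 3 arrays that stood apart and 1 to 8 with single arrays left out. Cyclosporine against untreated colitis had 14, and 4 when only these groups were fitted and 8 to 15 with single arrays left out. Cyclosporine colitis against untreated healthy mice had 2, and 1 with the stricter filter, 3 with the mean of the probe sets of a gene, 0 with the replicate block as a factor and 1 to 2 with single arrays left out. Probiotic colitis against probiotic healthy mice had 23, and 14 to 21 with single arrays left out. Untreated colitis against untreated healthy mice had 17, with counts of 13 to 22 over the alternatives, and cyclosporine against probiotic colitis had 18, with counts of 14 to 22. Without untreated colitis mouse 7 alone, 17 members passed in untreated colitis against untreated healthy mice, and 8 each in cyclosporine and probiotic against untreated colitis. The comparison of the healthy groups and the interaction had 0 in every alternative run. The cause of these shifts was not tested.

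The animal numbers recur between groups. Over 20 pairs with the same number the deviations from the group means correlated at -0.185 to 0.433, and 5 of the 20 were over 0.1. Pairs with different numbers were not set beside these, so the correlations do not settle what the numbers mean. In the main fit the numbers were taken as names of mice within a group. With the replicate block by duplicateCorrelation, whose correlation was 0.00916, the counts were as without it, and as a factor the replicate block gave 15 members in place of 17 for untreated colitis against untreated healthy, 2 in place of 3 for probiotic and 10 in place of 14 for cyclosporine against untreated colitis, 17 in place of 23 for probiotic colitis against probiotic healthy, 0 in place of 2 for cyclosporine colitis against untreated healthy and 15 in place of 18 for cyclosporine against probiotic colitis. Mmp2 was at 0.26 in untreated colitis against untreated healthy mice with the replicate block as a factor (adjusted p = 0.310).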
